A study of Neocallimastix californiae and Anaeromyces robustus with 43 samples.

Results

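In the anaerobic gut fungus Anaeromyces robustus (labelled S4), 80 transcripts were present on each of 6 carbon sources and stood lowest on the seventh, Avicel. They were chosen from the 17127 transcripts of the fungus by their deposited TPM (transcripts per 1000000, an abundance corrected for transcript length). For each transcript the median TPM was taken per carbon source. A score was formed as the log2 ratio of the lowest median on glucose, maltose, cellobiose, reed canary grass, switchgrass and corn stover to the median on Avicel, with 1 TPM added to both. The lowest of the 6 medians had to reach 5 TPM, which left 1940 transcripts. Of these, 422 had a score above 0, and the 80 highest scores, from 79 loci, were kept. All values on Avicel below are therefore those that chose the transcripts, and they are given as a description without a test.

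The study compared the transcriptomes of 2 anaerobic gut fungi grown on single carbon sources, and A. robustus gave 20 libraries. There were 3 libraries each on glucose, maltose, cellobiose, Avicel, reed canary grass and switchgrass, and 2 on corn stover. All groups are the same fungus, S4, in about 10 ml of Medium C at 39 °C, taken in exponential growth once the gas had reached 5 psi or more, per the labels' protocols, and the labels name no difference but the carbon source. The labels do not say whether replicates were separate cultures, so the p-values cover only the spread among the deposited libraries, and this spread may be technical. In bulk RNA, fewer cells of a kind and less RNA per cell cannot be told apart.

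Anaerobic gut fungi inhabit the rumen and hindgut of herbivores, where they grow root-like rhizoids into plant fragments and secrete large sets of enzymes against cellulose and hemicellulose. Lacking mitochondria that respire, they ferment sugars, in part in hydrogenosomes, organelles that release hydrogen. Glucose is the plain sugar, maltose and cellobiose are its disaccharides with the linkage of starch and of cellulose, and Avicel is microcrystalline cellulose purified from plant pulp. Reed canary grass, switchgrass and corn stover are grass biomass with hemicellulose and lignin beside cellulose. The deposited identifiers combine a locus and a version number and carry no gene name, so no role is stated for any member, and none could be grouped by pathway.

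A pair of libraries stood apart and bear on every value below. The libraries held 1946186 to 31742828 expected counts, and the shallowest was maltose replicate 3, whose largest transcript alone took 42.5% of its counts. On the log2(TPM + 1) scale, maltose replicate 3 lay below the mean of the other maltose libraries for 78 of 80 members, by a median difference of -3.26. The same held for 1894 of the 1940 transcripts at 5 TPM or more on the 6 carbon sources, with a median of -3.30, so the low values in that library were shared with the larger set. Avicel replicate 1 lay below the mean of Avicel replicates 2 and 3 for 76 of 80 members (median -1.02) and for 1649 of the 1940 transcripts (median -1.45). On the TMM scale that the tests use, log2(CPM + 1), the difference of Avicel replicate 1 turned, to a median of 0.49 with 27 of 80 members below 0 and 0.35 with 793 of the 1940 transcripts below 0. That of maltose replicate 3 shrank to -1.29 in the members and -1.31 in the 1940 transcripts. CPM are counts per 1000000. Maltose replicate 3 and Avicel replicate 1 had the smallest scaling factors of the 20 libraries by the TMM method of edgeR, 0.178 and 0.273, against 0.524 to 1.97 in the remaining 18. Wherever maltose replicate 3 was the lowest of its 3, the maltose median that chose the members was the lower of replicates 1 and 2. The part of these libraries in each result was not tested beyond the values given without them.

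The members were low on Avicel and not absent. Their median TPM was 2.42, 7.80 and 6.88 in the 3 Avicel libraries. On glucose it was 43.02, 33.1 and 45.4, on maltose 28.7, 27.7 and 1.67 and on cellobiose 36.98, 25.2 and 36.3. The grasses gave 31.97 and 29.5 on corn stover, 35.01, 36.03 and 33.7 on switchgrass and 32.8, 25 and 31.8 on reed canary grass. Avicel libraries were thus lower than all others except maltose replicate 3. A median of 43.2% of the lowest of the 6 other levels was left on Avicel, with a range over the members from 12.6% to 57.2%. No member had an Avicel median under 1 TPM (0 of 80), 28 were under 5 TPM, and 11 were at least 4-fold lower than on any other carbon source by median. The Avicel medians of the members ran from 1.25 to 454 TPM, and their lowest medians elsewhere from 5.11 to 1027 TPM. The description of the set as lost on Avicel alone therefore goes further than the values, which show transcripts low on Avicel.

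All 3 Avicel libraries lay below all 17 others for 7 of the 80 members, against a background of 0.339% of the 10316 transcripts tested. With maltose replicate 3 left out the count was 75 of 80, against 8.16%. Since the rule used these values, nothing is read from the difference. Maltose replicate 3 was below the Avicel median for 69 members and was the lowest of all 20 libraries for 56. Avicel replicate 1 was the lowest for 22.

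**Figure D1:**
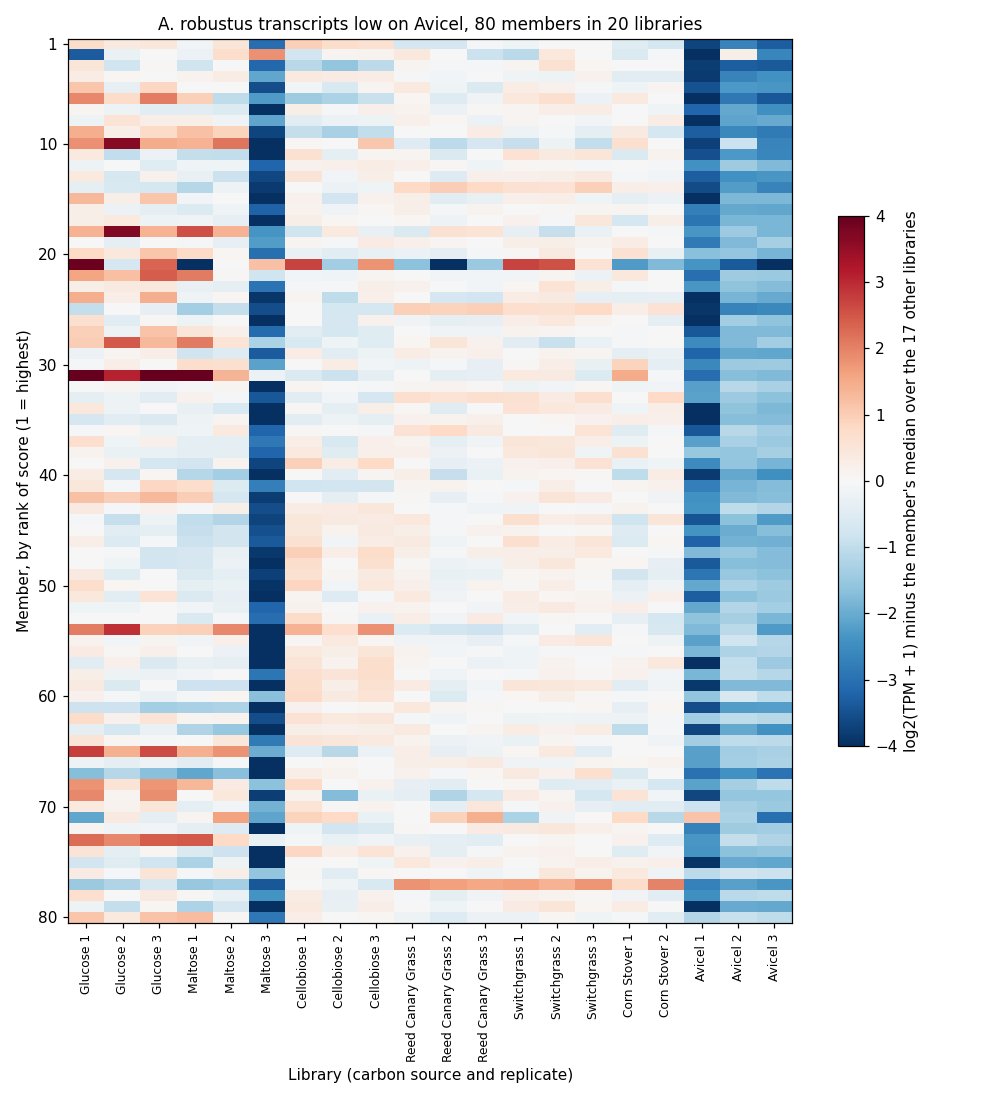
Level of each of the 80 members (rows, by rank of score) in each of the 20 libraries (columns), as log2(TPM + 1) minus the member's median over the 17 libraries not on Avicel. Blue columns stand at the 3 Avicel libraries and at maltose replicate 3, which was the lowest library for 56 members.

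The members' level was also set against that of a larger set within each library. The median TPM of the members was divided by the median TPM of the 1940 transcripts that reached 5 TPM on the 6 carbon sources, a set that holds the members too. The ratio was 0.162, 0.157 and 0.142 in the Avicel libraries, replicate 1 included. The rule chose the members for low Avicel TPM from these same transcripts, so a low ratio on Avicel was fixed by the choice and nothing is read from it. In maltose replicate 3 it was 0.997, within the 0.732 to 1.22 of the glucose and maltose libraries, so members and the larger set were low together there. Cellobiose libraries gave 0.466, 0.389 and 0.457, and the 8 grass libraries ran from 0.469 to 0.650. By group means the order was glucose (0.993 ± 0.213, SD, n = 3), maltose (0.910 ± 0.154, n = 3), corn stover (0.591 ± 0.0834, n = 2), switchgrass (0.590 ± 0.0196, n = 3), reed canary grass (0.523 ± 0.0505, n = 3), cellobiose (0.437 ± 0.0423, n = 3) and Avicel (0.154 ± 0.0107, n = 3). The libraries of neighbours in this order overlapped, except those of maltose with corn stover, those of reed canary grass with cellobiose and those of cellobiose with Avicel.

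**Figure D2:**
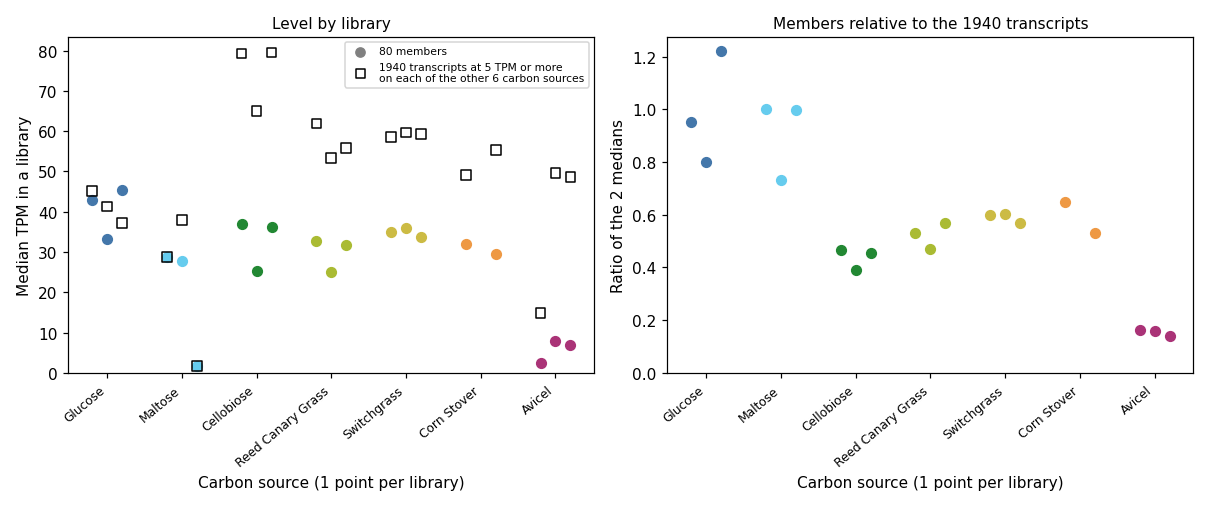
Left, median TPM of the 80 members (filled points) and of the 1940 transcripts at 5 TPM or more on each of the other 6 carbon sources (open squares) in each library. Right, the ratio of the medians, which lay at 0.162, 0.157 and 0.142 on Avicel and at 0.389 or above in every other library.

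The highest scores belonged to transcripts of moderate abundance. Locus1496v1rpkm48.89 stood at 67.5, 51.8 and 54.9 TPM on glucose, 36.9, 56.1 and 3.99 on maltose and 77.9, 66.2 and 62 on cellobiose. On the grasses it had 28.6 and 24.5 TPM on corn stover, 35.6, 40.1 and 40.9 on switchgrass and 24.9, 24.7 and 38.7 on reed canary grass, and on Avicel 2.21, 5.43 and 3.14 TPM. All Avicel libraries but replicate 2 lay below every other library, and replicate 2 lay above maltose replicate 3 alone. It kept 12.6% of its lowest other level, the smallest share among the 80. Locus2690v1rpkm18.31 had 49.7, 19.9 and 36.5 TPM on glucose, 19.8, 34.9 and 3.06 on maltose and 15.8, 11.04 and 16.4 on cellobiose. Its grass libraries gave 35.6 and 35 TPM on corn stover, 38.1, 53.7 and 36.8 on switchgrass and 37.7, 33.6 and 32.8 on reed canary grass, and Avicel gave 1.60, 2.63 and 2.51 TPM, below all 17 other libraries. Cellobiose was the next lowest carbon source for this transcript, and 15.9% of that level was left. Locus1217v1rpkm67.18 had 72.7, 62.9 and 57.9 TPM on glucose, 65.2, 72.8 and 13.1 on maltose and 77.1, 74.4 and 72.96 on cellobiose. It had 43.4 and 43.02 TPM on corn stover, 52.8, 51.5 and 66.9 on switchgrass and 56.6, 54.4 and 59.1 on reed canary grass, and 3.20, 8.44 and 10.2 TPM on Avicel, where replicate 1 was the lowest and all 3 stood below every other library.

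Locus2355v1rpkm22.86 was lower throughout, at 28.1, 9.78 and 22.9 TPM on glucose, 12.7, 12.6 and 0.15 on maltose and 11.5, 7.94 and 13.7 on cellobiose. It had 10.96 and 13.7 TPM on corn stover, 15.6, 14.2 and 11.8 on switchgrass and 16.6, 11.1 and 8.07 on reed canary grass, and 0.22, 1.75 and 1.71 TPM on Avicel, and the lowest of all its libraries were maltose replicate 3 and Avicel replicate 1. Locus1264v1rpkm64.46 varied more among the other carbon sources, with 212, 91.8 and 231 TPM on glucose, 108, 27.04 and 10.8 on maltose and 19.9, 22.6 and 29.5 on cellobiose. On the grasses it had 73.4 and 55.2 TPM on corn stover, 73.9, 87.2 and 47.2 on switchgrass and 58.01, 38.6 and 50.3 on reed canary grass, and on Avicel 0.07, 6.69 and 4.35 TPM. Glucose was thus its highest carbon source and cellobiose its lowest after Avicel, and its fitted log2 fold change of Avicel against the mean of the 6 others was -3.46 ± 0.67, the most negative of the members on the TMM scale. Locus2175v1rpkm26.29 was steadier in TPM, at 19.4, 33.4 and 27.4 TPM on glucose, 26.7, 20.5 and 4.53 on maltose and 16.6, 19.3 and 19.3 on cellobiose. On the TMM scale it was lower on cellobiose than on glucose (log2 fold change ± SE -1.65 ± 0.42, edgeR adjusted p = 0.00807). Its grass values were 22.6 and 28.1 TPM on corn stover, 24.6, 22.8 and 20.9 on switchgrass and 25.96, 24.1 and 18.96 on reed canary grass, and its Avicel values 0.41, 4.44 and 4.88 TPM, so that only maltose replicate 3 reached the Avicel range.

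Other transcripts among the 12 highest scores, by the rule lowest by median on Avicel like all members, stood at other levels. Locus889v1rpkm105.35 had 226, 96.8 and 139 TPM on glucose, 184, 151 and 5.55 on maltose and 41.7, 32.8 and 40.6 on cellobiose, and 7.35, 12.8 and 10.6 TPM on Avicel. Locus1338v1rpkm58.25 reached 103, 369 and 80.9 TPM on glucose but only 44.8 and 28.1 TPM on corn stover, 14.5, 24.6 and 13.8 on switchgrass and 19.4, 13.4 and 17.7 on reed canary grass, and Avicel replicate 2, at 15.2 TPM, was within the grass range. Among the 12, Locus1584v1rpkm44.85, Locus1570v1rpkm45.49 and Locus3645v1rpkm10.78 kept 23.8%, 24.6% and 23.9% of their lowest other level on Avicel. Locus3645v1rpkm10.78 was among the steadiest members elsewhere, with a 1.36-fold range between its highest and lowest median on the 6 carbon sources.

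**Figure D3:**
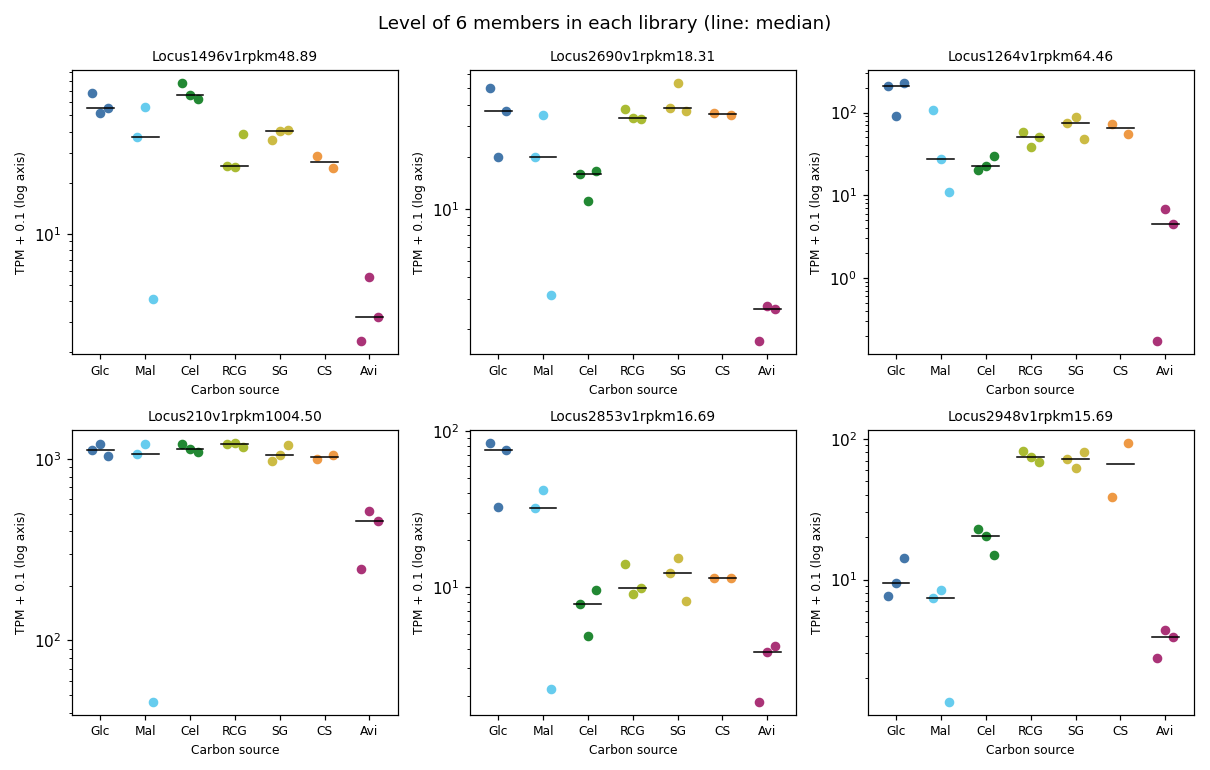
TPM of 6 members in each library, with 0.1 added, on log axes (Glc, glucose; Mal, maltose; Cel, cellobiose; RCG, reed canary grass; SG, switchgrass; CS, corn stover; Avi, Avicel), with the group median as a line. By the rule, Avicel lies lowest by median in each panel. Locus210v1rpkm1004.50 has similar median TPM on the other carbon sources, Locus2853v1rpkm16.69 is high on glucose and maltose and Locus2948v1rpkm15.69 is high on the grasses.

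The most abundant members were outside the 12 highest scores. Apart from the 1 TPM added, the score ranks by the share left on Avicel. Their larger shares therefore follow from the rule, and nothing is read from them. Locus210v1rpkm1004.50 had 1128, 1214 and 1036 TPM on glucose, 1064, 1210.3 and 45.8 on maltose and 1215, 1134 and 1099 on cellobiose. It had 1001 and 1053 TPM on corn stover, 976, 1056 and 1197 on switchgrass and 1209.9, 1229.8 and 1162 on reed canary grass, and 248, 518 and 454 TPM on Avicel. Its median TPM on the 6 other carbon sources differed by only 1.18-fold, the smallest range of any member, while maltose replicate 3 stood below all Avicel libraries. After TMM scaling it was not level. It fell from 1460 ± 203 CPM on glucose to 754 ± 171 on the grasses (SD; log2 fold change ± SE -0.97 ± 0.32, edgeR adjusted p = 0.0173). Locus393v1rpkm334.60 had 107, 190.3 and 203 TPM on Avicel against medians of 352 TPM on maltose to 576 TPM on reed canary grass, and 54% of its lowest other level was left. Locus517v1rpkm228.63 had 480.5 and 461 TPM on corn stover, 604, 600.2 and 777 on switchgrass and 698, 794 and 691 on reed canary grass, above its values of 311, 263 and 245 TPM on glucose, 182, 344 and 26.9 on maltose and 399, 335 and 353 on cellobiose. Its Avicel values were 32.5, 83.7 and 61.4 TPM, lower than in every other library but maltose replicate 3, and 33.8% of its lowest other level was left.

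The edge of the set was not a break. The last 3 members, Locus2631v1rpkm18.91, Locus1972v1rpkm31.40 and Locus3698v1rpkm10.51, had scores of 0.800, 0.798 and 0.796. The next 3 transcripts, which were not members, Locus2801v2rpkm15.29, Locus5167v1rpkm5.48 and Locus2986v1rpkm15.34, had 0.788, 0.787 and 0.780. The first of the non-members, Locus2801v2rpkm15.29, had medians of 2.48 TPM on Avicel and 5.01 TPM on its lowest other carbon source, against 18.5 and 32.9 TPM for Locus3698v1rpkm10.51.

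How far below the other carbon sources the members stood on Avicel depended on the scale. Library size alone and TPM assume equal totals, whereas TMM aligns the bulk of transcripts between libraries. On the TMM scale the fitted log2 fold change of Avicel against the mean of the 6 other carbon sources was negative for 73 of 80 members, with a median of -1.14 and a range from -3.46 to 1.94. The median over all 10316 transcripts was -0.27, and over the 1940 transcripts at 5 TPM or more it was 0.77. With library size alone the members' median was -2.12 and that of all transcripts -1.23, so the distance between them was -0.90 against -0.87 with TMM. Among the 12 highest scores the TMM values included -2.25 ± 0.36 for Locus1496v1rpkm48.89, -2.36 ± 0.36 for Locus2690v1rpkm18.31 and -2.50 ± 0.51 for Locus2355v1rpkm22.86. The abundant Locus210v1rpkm1004.50 had -0.11 ± 0.31 and Locus393v1rpkm334.60 had -0.15 ± 0.31. When the same rule was applied to CPM after TMM, 21 of the 80 members stayed among the 80 highest scores.

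Comparisons without Avicel asked how the members differed among the carbon sources that the score did not set against each other. The rule asked for at least 5 TPM on all of them, so a transcript absent from any of them could not be a member. The score also rose with the lowest median among them, so the values tested here had a part in choosing the members. How far this choice shaped the counts of members called was not tested. All 80 members passed the filter on low counts and entered the quasi-likelihood test of edgeR, adjusted by Benjamini-Hochberg over all 10316 transcripts. On cellobiose against glucose 33 of 80 members were called lower and 0 higher, where 23.4% of all transcripts were called, 7.3% lower and 16.1% higher. The median log2 fold change was -1.03 in the members and 0.16 over all transcripts. Below 0 were 77 of 80 members, 1389 of the 1940 transcripts at 5 TPM or more and 4511 of all 10316 transcripts. Of the 1940 transcripts at 5 TPM or more, 16.4% were called lower, with a median of -0.51. Without maltose replicate 3 in the fit the count of members called was 50, all lower, and the share of all transcripts called was 28.7%. With library size alone it was 8, also all lower, with 29.3% of all transcripts called, and the medians were -0.22 in the members and 1.00 over all transcripts, so the members' lower position relative to other transcripts was -1.23 against -1.19 with TMM.

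Among the members that fell on cellobiose, Locus1052v1rpkm82.94 went furthest. It had 199.8, 105 and 389 TPM on glucose, 209, 30.8 and 9.67 on maltose and 7.42, 5.84 and 8.55 on cellobiose, so all cellobiose libraries lay below all glucose libraries. After TMM scaling it fell from 994 ± 771 CPM on glucose to 13.5 ± 1.35 on cellobiose (SD, n = 3 each; log2 fold change ± SE -6.20 ± 0.77, edgeR adjusted p = 1.77e-05). Locus2853v1rpkm16.69 had 84.2, 32.4 and 75.3 TPM on glucose, 32.2, 41.7 and 2.11 on maltose and 7.70, 4.73 and 9.50 on cellobiose. It fell from 96.6 ± 43.9 to 4.98 ± 0.895 CPM (-4.27 ± 0.46, edgeR adjusted p = 5.58e-06), and its groups did not overlap. Locus1264v1rpkm64.46 fell by a similar course, from 746 ± 374 to 46.4 ± 11.98 CPM (-4.01 ± 0.75, edgeR adjusted p = 0.00102), and so did Locus889v1rpkm105.35 (-3.08 ± 0.53, edgeR adjusted p = 0.000456).

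The mean of the 3 grasses against glucose used the same glucose libraries as the comparison with cellobiose, so the results are not independent. It called 50 of 80 members lower and 1 higher, where 48.7% of all transcripts were called, 20.5% lower and 28.2% higher. The median log2 fold change was -1.06 in the members, -0.70 in the 1940 transcripts at 5 TPM or more, of which 41.96% were called lower, and 0.08 over all transcripts. With library size alone 14 lower and 2 higher were called, against 40.9% of all transcripts, and the members' median lay -1.11 from that of all transcripts, against -1.14 with TMM. Locus1052v1rpkm82.94 had 34.1 and 10.9 TPM on corn stover, 15.5, 15.04 and 7.55 on switchgrass and 11.5, 8.76 and 8.97 on reed canary grass, and fell to 30.1 ± 22.97 CPM over the 8 grass libraries (-5.06 ± 0.51, edgeR adjusted p = 3.62e-07). Locus2853v1rpkm16.69 fell to 8.71 ± 1.46 (-3.46 ± 0.32, edgeR adjusted p = 1.2e-07) and Locus1685v1rpkm40.57 from 212 ± 65.2 to 19.9 ± 4.68 CPM (-3.40 ± 0.34, edgeR adjusted p = 3.41e-07). For both, every grass library stood below every glucose library in TPM.

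A single member was called higher on the grasses than on glucose on the TMM scale. Locus2948v1rpkm15.69 had 7.58, 9.30 and 14.2 TPM on glucose, 7.34, 8.29 and 1.26 on maltose and 22.9, 20.3 and 14.8 on cellobiose. It had 38.6 and 93.3 TPM on corn stover, 72.1, 61.3 and 79.7 on switchgrass and 82.2, 74.4 and 68.7 on reed canary grass, above every sugar library, and 2.68, 4.31 and 3.79 TPM on Avicel. It rose from 32.5 ± 16.3 CPM on glucose to 109.9 ± 29.2 on the grasses (1.75 ± 0.41, edgeR adjusted p = 0.0013). It was also higher on the grasses than on cellobiose (1.99 ± 0.41, edgeR adjusted p = 0.00474). Without cellobiose replicate 3 the last of these calls was lost (edgeR adjusted p = 0.063).

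Between the grasses and cellobiose, 6.25% of the members were called, and 4.90% of the 1940 transcripts at 5 TPM or more. This share was near the background, so nothing about the members as a set is read from it. The test called 3 of 80 higher and 2 lower, against 8.69% of all transcripts, or 5.3% higher and 3.38% lower, with a median of 0.11 in the members and -0.05 over all. Beside Locus2948v1rpkm15.69, Locus2690v1rpkm18.31 was higher on the grasses, at 32.05 ± 4.05 against 10.9 ± 0.434 CPM (1.56 ± 0.35, edgeR adjusted p = 0.00839). Also higher was Locus1258v1rpkm64.80 (1.30 ± 0.30, edgeR adjusted p = 0.00906), named after its values were seen. Locus646v1rpkm163.86 was lower, at 26.9 ± 7.13 against 84.7 ± 20.9 (-1.63 ± 0.50, edgeR adjusted p = 0.0446), and so was Locus1496v1rpkm48.89 (-0.98 ± 0.30, edgeR adjusted p = 0.0459). In TPM Locus646v1rpkm163.86 had 160.1, 296 and 73.3 TPM on glucose, 74.2, 147 and 1.29 on maltose and 103, 61.4 and 139 on cellobiose. It had 37.1 and 23.9 TPM on corn stover, 28.4, 38.1 and 27.5 on switchgrass and 25.6, 22.4 and 20.8 on reed canary grass, and 10.6, 17.6 and 7.18 TPM on Avicel, so the grass libraries all lay below the cellobiose libraries. The calls of Locus646v1rpkm163.86 and Locus1496v1rpkm48.89 sat close to the threshold and were lost under 13 and 15 of 27 alternatives, and that of Locus2690v1rpkm18.31 was lost without cellobiose replicate 1 or 3 and with library size alone, and that of Locus1258v1rpkm64.80 without cellobiose replicate 3 and with library size alone. The total, 5 members, was 10 without maltose replicate 3 or Avicel replicate 1, 0 without cellobiose replicate 3, 2 without cellobiose replicate 1, and 3 without cellobiose replicate 2, reed canary grass replicate 1 or 2, any switchgrass library or either corn stover library. DESeq2 size factors gave 9 higher and 1 lower, and library size alone gave 1 higher and 0 lower.

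**Figure D4:**
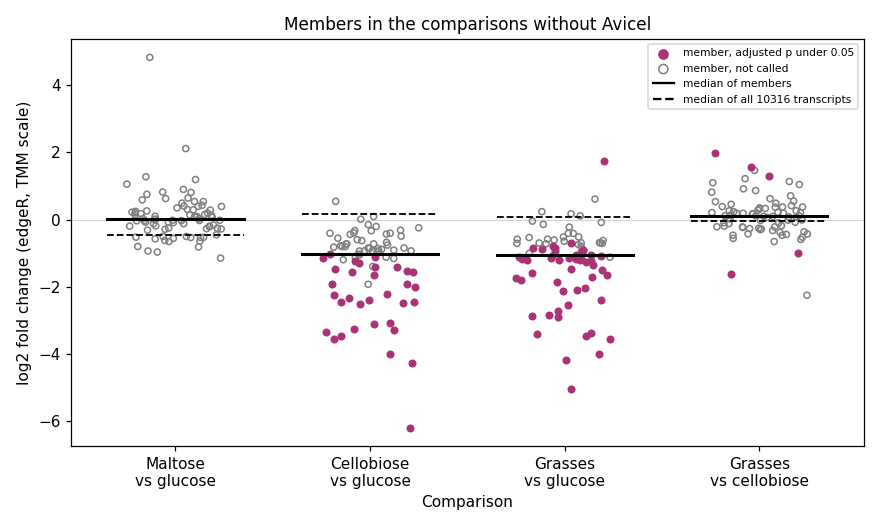
Log2 fold changes of the 80 members (points) in the 4 comparisons without Avicel, on the TMM scale, with filled points for an adjusted p under 0.05, a solid line for the members' median and a dashed line for the median of all 10316 transcripts. Most members sit below the dashed line on cellobiose and on the grasses against glucose (medians -1.03 and -1.06), and near it on the grasses against cellobiose.

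No member passed the test between maltose and glucose, which does not show that the levels were alike. The edgeR test called 0 of 80 members, with 4 at an unadjusted p under 0.05, against 0.00969% of all transcripts called, and DESeq2 called 4 members higher and 8.11% of the transcripts to which it gave an adjusted p. The members' median log2 fold change was 0.01, with a range from -1.15 to 4.83 at Locus15889v1rpkm0.00, and the count was 0 without maltose replicate 3. Over all 6 carbon sources other than Avicel at once, 47 of 80 members differed, against 50.3% of all transcripts, a share near the background from which nothing about the members is read. The smallest p-values belonged to Locus2853v1rpkm16.69 (edgeR adjusted p = 1.05e-07), Locus1685v1rpkm40.57 (1.12e-07) and Locus1052v1rpkm82.94 (2.6e-07), which by median TPM were highest on glucose and next on maltose. By median TPM, glucose was the highest of the 6 for 26 members, cellobiose for 18, switchgrass for 18, reed canary grass for 13, maltose for 4 and corn stover for 1. Maltose was the lowest of the 6 for 40, by medians that include maltose replicate 3, which was low in most transcripts. The matching shares over all transcripts are not given, so nothing about the members is read from these counts. Without both libraries that stood apart, chosen as an alternative after the data were seen, 72 of 80 members differed over the 6 carbon sources, and so did 66.5% of all transcripts in that fit. The same fit called 65 members on cellobiose against glucose, where 40.1% of all transcripts were called, and 70 on the grasses against glucose, where 61.2% were called. With library size alone 14 members and 62.7% of all transcripts differed over the 6 carbon sources.

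Reads can be divided between the versions of a locus, so the other versions of member loci were set beside the members. Of the 80 members, 13 had other versions in the table, from 12 loci, and the summed TPM of the locus was lowest on Avicel in 11 of the 12. At Locus1584, Locus490, Locus1613 and Locus360 the other versions stayed under 1 TPM by median, and at Locus831 both abundant versions were members. The rule largely fixed a low sum at such loci, so nothing is read from the count. The exception among the 12 was Locus155. Its member Locus155v2rpkm182.67 had 10.3, 99.9 and 72.2 TPM on Avicel and medians from 144 TPM on glucose to 286 TPM on cellobiose. Version Locus155v1rpkm1608.80 ran the other way, at 561, 513 and 618 TPM on Avicel and a median of 549 TPM on glucose, 298 on maltose and 129 on corn stover. The sum was 613 TPM on Avicel, between glucose at 693 and cellobiose at 469.8 TPM, so the locus as a whole was not low on Avicel.

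Locus831 had both abundant versions in the set. Locus831v1rpkm115.75 had 3.66, 24.7 and 21.6 TPM and Locus831v2rpkm24.78 1.49, 33.3 and 32.4 TPM on Avicel, and the summed medians were 54.1 TPM on Avicel and 151 to 224 TPM on the 6 others. Avicel replicate 1 stood far below replicates 2 and 3 for both versions. Such a gap was also among the widest of the members at Locus1409v1rpkm53.60, a locus with a single version, which had 0.27, 12.6 and 11.1 TPM on Avicel against 134, 58.5 and 135 TPM on glucose, 43, 50.5 and 2.32 on maltose and 51.4, 23.3 and 55.7 on cellobiose. In TPM, Locus727 was lowest on Avicel in both versions. Locus727v2rpkm24.02 had a median of 57.4 TPM on Avicel against 111 to 172 TPM elsewhere, and Locus727v1rpkm138.74, not a member, 13.5 against 22.4 to 41.4 TPM. On the TMM scale the member Locus727v2rpkm24.02 was not lower, with a fitted log2 fold change of Avicel against the mean of the 6 others of 0.23 ± 0.30. Locus7154 has 15 versions, and its sum was 59.6 TPM on Avicel against 62.6 TPM on glucose, while the member Locus7154v11rpkm0.45 had 16.9 TPM on glucose and 5.49 TPM on Avicel. At Locus2571 the member Locus2571v2rpkm2.53 had 6.26 TPM on Avicel against 14.6 to 40.8 TPM elsewhere, and the other version, Locus2571v1rpkm19.61, 7.18 against 9.30 to 28.1 TPM. Of the 10 other versions at 1 TPM or more on each of the 6 carbon sources, 6 were lowest on Avicel. Several of the 10 are versions of Locus7154 and so are not separate cases. The matching share over all transcripts is not given, so nothing is read from this count. No test was made here, since versions of a locus are not independent of the members.

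**Figure D5:**
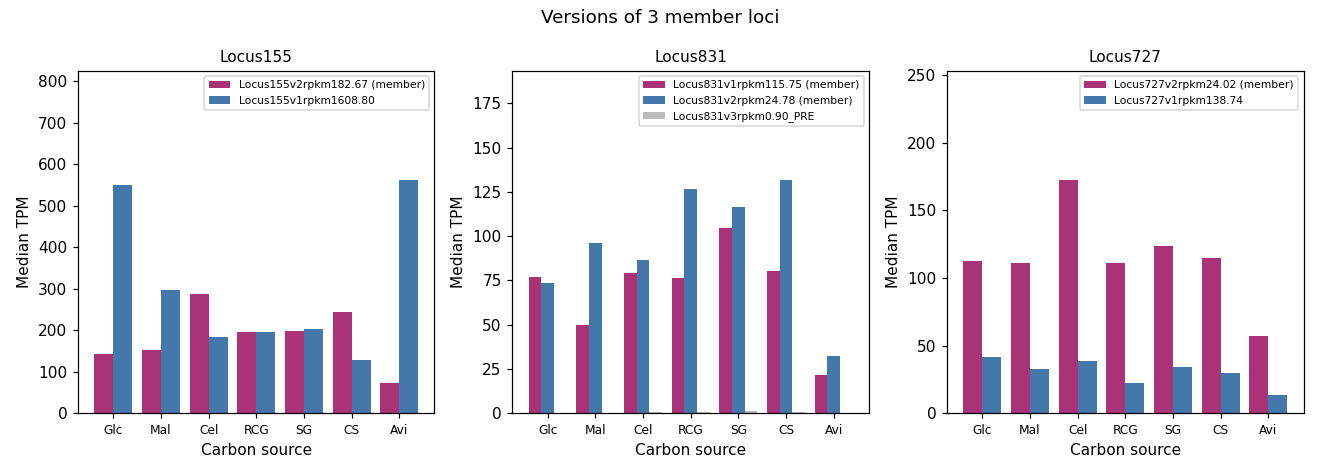
Median TPM of each version of 3 member loci on each carbon source (abbreviations as in the plot of 6 members). At Locus155 the version that is not a member stands at 561 TPM on Avicel and the member at 72.2 TPM, whereas at Locus831 and Locus727 the versions are low on Avicel together in TPM.

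Most member values rested on many reads. The median member had 113, 208 and 163 expected counts in Avicel replicates 1, 2 and 3. In 54 of 80 members the counts were whole in all 20 libraries (tolerance 1e-09). Transcript length was compared through the expected counts per TPM, set against the median transcript at 5 TPM or more in every library. By this measure the members had a median relative length of 1.67, against 1.48 in the 1940 transcripts at 5 TPM or more on the 6 carbon sources.

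A group of 4 members had a relative length under 0.1, and their TPM was erratic. Locus15889v1rpkm0.00, second by score, had 0, 104 and 13.8 TPM on Avicel, from 0, 84.2 and 12.6 expected counts. It had 7.89, 73.5 and 89.1 TPM on glucose, 75.3, 145 and 314 on maltose and 51.3, 96.7 and 98 on cellobiose, so Avicel replicate 2 exceeded the cellobiose and glucose libraries. The 0 in Avicel replicate 1 allows up to 3 counts, or 0.135 CPM by library size, before TMM scaling. Locus4227v1rpkm8.30 had 33.9, 16.2 and 8.46 TPM on Avicel but 2677, 110.4 and 891 TPM on glucose, 0, 177 and 396 on maltose and 1156, 66.5 and 621 on cellobiose, and 0 TPM in reed canary grass replicate 2 as well. Its call on the grasses against glucose (-4.18 ± 1.31, edgeR adjusted p = 0.0166) was made on groups that overlapped, and was lost without glucose replicate 1 or either corn stover library and with the replicate number as a block (-3.39, edgeR adjusted p = 0.0550). Locus16099v1rpkm0.00 had 329.8, 61.4 and 17.2 TPM on Avicel against 34.5, 189 and 112 TPM on glucose, 159, 458 and 33.8 on maltose and 274, 255 and 122 on cellobiose, so Avicel replicate 1 was above all of these but maltose replicate 2. Locus4956v1rpkm5.98 had 8.75, 17.01 and 12.8 TPM on Avicel against 126, 632 and 126 TPM on glucose, 293, 126 and 8.55 on maltose and 27.3, 63.4 and 38.6 on cellobiose. These last 2 were named after their values were seen. In maltose replicate 3, 11 members had no counts, where a count of 0 allows up to 3 counts, or 1.54 CPM by library size. Avicel replicate 1 and maltose replicate 3 had small TMM factors, so both limits are higher on the TMM scale of the other CPM values. These limits cover counting error only.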

How the data were processed

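RNA of A. robustus cultures was sequenced after TruSeq stranded mRNA library preparation, per the labels' protocols. The authors deposited a table of expected counts, estimated with RSEM per the submitters' processing notes, and a table of TPM that corrects them for transcript length and library total. The sources used here do not give the aligner, the transcripts used as reference or any filter on reads. TPM depends on the whole content of a library, so a few abundant transcripts can lower all others.

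Members were chosen from the deposited TPM as described, and the members, lists and tests were chosen with earlier results of these data known. Expected counts were rounded and filtered with edgeR 4.0.16 (R 4.3.3, function filterByExpr, minimum count 10, minimum total 15), which left 10316 transcripts with 99.9% of the counts. Libraries were scaled by TMM. A robust quasi-likelihood model with 1 mean per carbon source was fitted to all 20 libraries, with Benjamini-Hochberg adjustment of the p-values of a comparison (threshold 0.05). Standard errors are the log2 fold change divided by the square root of F. The steps were tested on simulated data, in which all libraries shared a common mean profile apart from changes set on cellobiose. No simulated library stood apart in its profile, so that test does not cover such libraries. Within groups, the chi-square of counts between replicates was 17.1 to 1545 per degree of freedom, so no 2 libraries were alike within sampling noise.

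Members were named by rank: highest score, highest abundance, largest called change in each direction, smallest p-value, nearest to the edge of the set, most abundant other versions, and Avicel replicate 1 farthest from replicates 2 and 3. Alternatives were DESeq2 1.42.0, DESeq2 size factors, library size alone, no filter, a replicate block, a fit of only the compared groups, each library left out in turn, other settings of the rule and, chosen after seeing the data, a fit without both Avicel replicate 1 and maltose replicate 3. The tables of the other fungus, Neocallimastix californiae, served only to count transcripts. Figures were drawn with matplotlib 3.10.9.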

Additional observations from a re-analysis of the deposited data

How the results depend on the processing

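Of 27 alternatives, 1 moved the count of members called by over 1.5 times on the grasses against glucose, 2 over the 6 carbon sources, 3 on cellobiose against glucose and 1 on maltose against glucose, but 17 did so on the grasses against cellobiose. With library size alone the counts were 8 on cellobiose and 16 on the grasses against glucose, 1 on the grasses against cellobiose and 14 over the 6 carbon sources. DESeq2 called 4 on maltose against glucose and 14 on the grasses against cellobiose, where DESeq2 size factors gave 10 and only the compared groups gave 23. Without both Avicel replicate 1 and maltose replicate 3, an alternative chosen after seeing the data, the counts were 65 on cellobiose against glucose, 18 on the grasses against cellobiose and 72 over the 6 carbon sources. Leaving out 1 library at a time gave 24 to 50 on cellobiose against glucose, 37 to 65 on the grasses against glucose, 0 to 10 on the grasses against cellobiose, 42 to 67 over the 6 carbon sources and 0 throughout on maltose against glucose. Avicel replicate 1 or maltose replicate 3 left out gave the highest count on the grasses against cellobiose, and maltose replicate 3 did so on the other 3. Where 1 corn stover library was left, it was assumed to vary like the other groups. The causes of these changes were not tested.

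The median log2 fold change of the members on Avicel was -1.52 with DESeq2 size factors, -1.53 with DESeq2 and -2.12 with library size alone, in place of -1.14, and -1.27 to -1.08 without 1 Avicel library. Of the 80 members, 52 stayed among the 80 highest scores with a minimum of 1 TPM, 37 with a minimum of 20 TPM, which only 37 of them reach, 21 with CPM after TMM, and 51 to 80 without 1 library, fewest without maltose replicate 2. Of the calls given in the comparisons against glucose or cellobiose, 14 were followed through 378 refits in all. Of these refits 340 kept the call, 38 lost it in the same direction and none turned direction. The calls of Locus2175v1rpkm26.29 on cellobiose and of Locus210v1rpkm1004.50 on the grasses, both against glucose, were not among the 14. The 81 refits of the 3 named over the 6 carbon sources, a test without direction, kept the call.

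No pairing of libraries by replicate number was seen. Deviations of libraries with the same number correlated at -0.393 to 0.472 (median -0.0366), and those with different numbers at -0.546 to 0.489 (median 0.0105). The deviations were taken from the means of small groups, so a pairing could be missed. With the replicate block 30 members were called on cellobiose against glucose, 49 on the grasses against glucose, 4 on the grasses against cellobiose, 46 over the 6 carbon sources and 0 on maltose against glucose, and the median on Avicel was -1.12.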
